A study of Arabidopsis thaliana with 128 samples.

Results

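The 46 nuclear photosynthesis genes described here encode proteins that work inside the chloroplast but are transcribed in the nucleus. They were chosen by gene identifier as the rows of the expression table for the antenna, Rubisco and photosystem subunit families, and all 46 were found among 29417 nuclear genes and 60886 features. By class they are 6 LHCA genes, 14 LHCB genes, 4 RBCS genes, the single RCA gene, 12 PSA genes and 9 PSB genes. The rule itself used no measured value, but earlier results of these data were known when it was set.

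Light drives electrons through photosystem II and then photosystem I in the thylakoid membrane. LHCB proteins form the light-harvesting antenna of photosystem II, and LHCA proteins form the antenna of photosystem I. LHCB1, LHCB2 and LHCB3 build the trimers of the former, and LHCB4, LHCB5 and LHCB6 link them to the core. PSA and PSB proteins are subunits of the photosystems themselves, RBCS is the small subunit of the carbon-fixing enzyme Rubisco, and RCA (Rubisco activase) is the chaperone that keeps Rubisco open for catalysis and is itself known to be heat-sensitive. In green tissue these transcripts are among the most abundant of the cell.

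All plants were Arabidopsis thaliana Col-0 with the reporter pCLV3::H2BmCherry, which labels nuclei of shoot stem cells, and the controls carried it too. Besides the plants called wild type (wt), there were poliv plants (nrpda-3, SALK_128428, a lesion in the largest subunit of RNA polymerase IV) and ddm1 plants (ddm1-10, SALK_093009, a lesion in a chromatin remodeller). Seedlings grown in vitro were 6 days old when they were moved to 37 °C for 1 day or left at 21 °C. Sampled at day 7 were seedlings without roots (10 pooled plants per library), sorted stem cell nuclei and, from wt only, sorted nonstem cell nuclei (100 nuclei per library). Sampled at day 28, well after the stress, were inflorescence apices and stem cell nuclei. The 128 libraries fall into 26 groups. Seedlings gave 4 libraries per group (3 for poliv controls), day 7 stem cell nuclei gave 8, nonstem nuclei gave 6, and the groups of day 28 held 3 or 4. The sources do not say whether libraries of a group come from separate plants or sorts, so every p-value rests on library-to-library spread, which may be technical.

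Libraries held from 8614232 to 17611137 reads in seedlings, from 1853992 to 5813317 in day 7 stem cell nuclei and from 3401349 to 5253212 in nonstem nuclei. Read totals for 1 library each of nonstem nuclei, ddm1 heat-stressed stem cell nuclei and ddm1 heat-treated inflorescences were not recovered. Chloroplast-encoded transcripts took from 2.22% to 11.2% of all counts in seedlings and from 8.68% to 35.5% in day 7 stem cell nuclei. The summed normalized counts of 3 stem cell markers (CLV3, AGO5 and AGO9) were from 137 to 376 in wt control stem cell nuclei and from 2.04 to 11.6 in nonstem nuclei. In ddm1 control stem cell nuclei the same sum was only 4.50 to 78.9, below every wt library, so the defining markers of stem cells were scarce in these libraries. DDM1 itself had a median normalized count of 1.28 in ddm1 control seedlings against 25.8 in wt, but 210 in ddm1 control stem cell nuclei against 81.7 in wt. NRPD1 was not lower in poliv than in wt seedlings, with medians of 11.3 and 8.35. Both lesions are insertions whose position is not given in the sources used here, so transcript counts over the whole gene check them only in part. All groups are named by their labels, and DDM1 stood below wt in every library of the control seedlings and the inflorescences labelled ddm1, but not in the nuclei.

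In control seedlings the 46 genes were a large part of the transcriptome. In the wt control libraries they took 43.9% as a median, in the range 41.5% to 50.7%, of all nuclear gene counts, and LHCB genes alone took a mean of 19.3% ± 1.93 (SD, n = 4). On a scale of normalized counts per kilobase of annotated exon (the union over transcripts), RBCS1A (AT1G67090) stood highest with 753699 ± 163607 (SD, n = 4), followed by LHCB1.3 with 639098 ± 133934 and LHCB1.5 with 553482 ± 279401. The ranges of these 3 genes over libraries overlapped, so their order does not hold beyond the spread. At the other end were LHCA5 with 2252 ± 470, LHCA6 with 2132 ± 882, and LHCB4.3 (AT2G40100), a copy of the linker antenna gene LHCB4, with 119 ± 47.0. LHCB4.3 was below every other member on this scale in each of the 4 libraries.

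The members lie on all 5 nuclear chromosomes, with 18 on chromosome 1. Some are close neighbours and near-copies: LHCB1.1, LHCB1.2 and LHCB1.3 sit together on chromosome 1 between positions 10472280 and 10479114, LHCB1.4 and LHCB1.5 on chromosome 2, and RBCS1B, RBCS2B and RBCS3B on chromosome 5 (RefSeq annotation of TAIR10.1). How the counting shared reads between such copies, LHCB2.1 and LHCB2.2 included, is not stated, so their single values are uncertain. Of the members, 10 have no intron in the annotation, among them all 5 LHCB1 genes, PSAD1 and PSAD2.

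The heat results below turn on the contrast between LHCB2 genes, which fell the most in wt seedlings, and RBCS3B and PSBR, which fell the least. Their promoters are shown as the 250 bases before the annotated gene start, read 5′ to 3′ on the gene's strand from the TAIR10.1 assembly, with capitals for any of 5 motifs searched on both strands. The windows are chr3:10255656-10255905 (+ strand) for LHCB2.3, chr2:1824481-1824730 (- strand) for LHCB2.1, chr5:15378643-15378892 (- strand) for RBCS3B and chr1:29735702-29735951 (+ strand) for PSBR.
LHCB2.3: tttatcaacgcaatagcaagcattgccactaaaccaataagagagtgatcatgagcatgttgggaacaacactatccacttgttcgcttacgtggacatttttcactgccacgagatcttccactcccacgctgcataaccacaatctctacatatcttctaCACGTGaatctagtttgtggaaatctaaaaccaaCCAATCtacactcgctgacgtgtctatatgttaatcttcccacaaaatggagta
LHCB2.1: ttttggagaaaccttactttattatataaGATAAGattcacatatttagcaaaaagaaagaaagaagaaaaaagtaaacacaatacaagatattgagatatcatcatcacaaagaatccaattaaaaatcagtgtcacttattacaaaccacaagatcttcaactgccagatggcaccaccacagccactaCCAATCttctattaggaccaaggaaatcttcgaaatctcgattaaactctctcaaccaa
RBCS3B: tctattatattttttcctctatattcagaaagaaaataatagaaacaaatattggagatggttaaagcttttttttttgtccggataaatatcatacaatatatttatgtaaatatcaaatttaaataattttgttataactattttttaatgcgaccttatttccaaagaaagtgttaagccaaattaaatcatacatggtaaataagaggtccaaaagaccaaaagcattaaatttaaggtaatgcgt
PSBR: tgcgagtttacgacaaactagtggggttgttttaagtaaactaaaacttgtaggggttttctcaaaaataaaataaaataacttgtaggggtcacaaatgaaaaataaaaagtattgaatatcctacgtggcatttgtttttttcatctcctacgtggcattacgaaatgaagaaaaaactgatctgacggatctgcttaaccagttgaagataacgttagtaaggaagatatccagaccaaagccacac
The LHCB2.3 window holds a G-box (CACGTG), the core bound by light-signalling factors, and CCAATC, a motif linked to GLK factors. The LHCB2.1 window holds an I-box (GATAAG) and CCAATC. The windows of RBCS3B and PSBR hold none of the motifs searched. These 4 windows do not stand for all members. Those of PSAD2 and LHCB3, which fell strongly in wt seedlings, hold none either. Among the milder falls, the LHCA1 window holds I-boxes and CCAATC, and that of LHCB4.1 a G-box and CCAATC. The windows of PSAD2, LHCB3, LHCA1 and some other members overlap an annotated exon of another gene, so they are not promoter sequence alone. Motif content was not tested against the heat effect. Over all 46 members the G-box was in 17.4% of windows, against 6.49% of the 27443 promoters of nuclear protein-coding genes, the I-box in 21.7% against 12.3%, and CCAATC in 23.9% against 10.2%. The variant CCAATG was in 6.52% of member windows against 9.38%, and the heat shock element was in 0 member windows against 0.386%. CCAATC and CCAATG differ only in their last letter, and all these matches are descriptions of letters, not of bound sites.

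The first question was how acute heat changed the members in whole seedlings. All 46 genes fell in wt (limma, on log2 values after adding 1 to each normalized count, with a call needing a Benjamini-Hochberg adjusted p under 0.05 over all features and a log2 fold change beyond 1), where 27.4% of all features tested were called lower and 20.3% higher. The control and heat libraries of wt did not overlap for any of the 46, as for 52.4% of all features. The median log2 fold change of the members was -3.49, with a range of -12.47 to -1.25, against -0.14 over all features. With TMM scaling of the nuclear genes RBCS3B and PSBR were no longer called. In bulk tissue, fewer cells that express a gene and less RNA per cell cannot be told apart. The share of nuclear gene counts on the members fell from a mean of 45.0% ± 4.31 to 13.4% ± 2.87 (SD, n = 4 each).

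**Figure D1:**
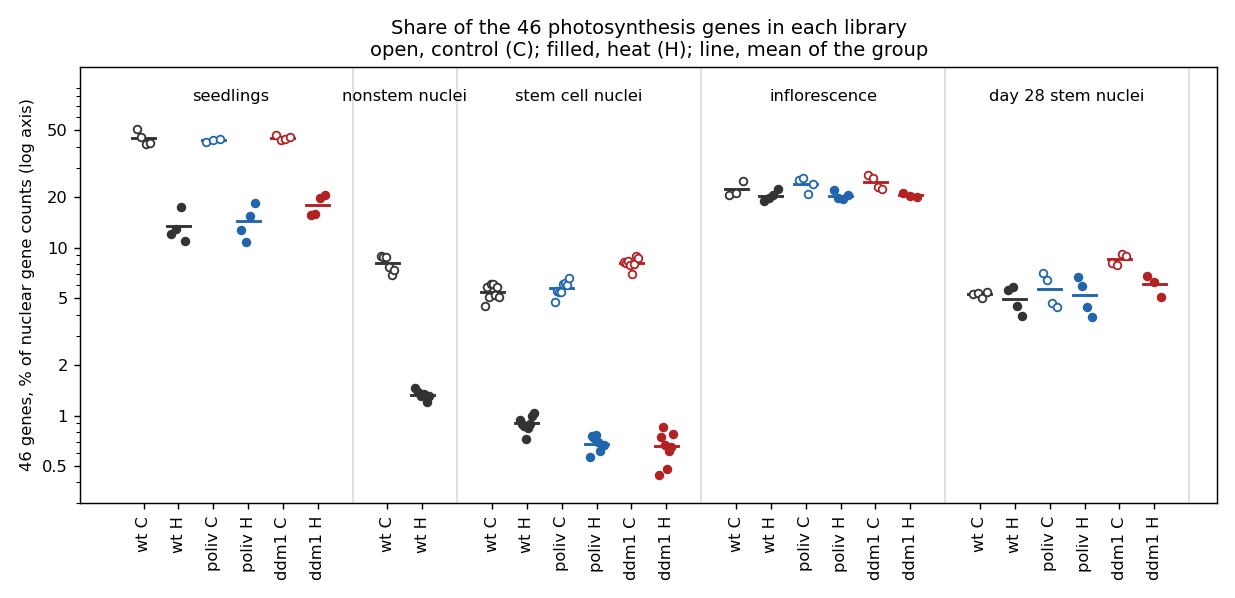
Percent of nuclear gene counts on the 46 genes in each library (vertical log axis), by group; open points are control libraries, filled points heat libraries and lines the group means. Heat lowered the share in every seedling and day 7 nuclei group, while at day 28 the heat and control groups lay closer together.

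The antenna of photosystem II lost the most. All 14 LHCB genes fell, with a median log2 fold change of -4.91. LHCB2.3 (AT3G27690), which encodes a component of the trimeric antenna, had normalized counts of 124514, 74346, 24340 and 37181 in the wt control libraries and 14.5, 17.5, 5.46 and 3.45 in the heat libraries. Each heat library thus held only a few counts of a gene that was plentiful in all controls (log2 fold change -12.47 ± 0.62 SE, limma adjusted p = 5.30e-07). LHCB2.1 (AT2G05100) had 397515, 258950, 175078 and 248374 normalized counts in controls and 480, 725, 262 and 392 after heat. The ratio of means was 581-fold, with no overlap (log2 fold change -9.21 ± 0.32 SE, limma adjusted p = 1.32e-09), and the near-copy LHCB2.2 fell by 9.09 on the log2 scale.

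The LHCB1 copies did not share this near-complete loss. LHCB1.3, the most counted LHCB gene, had normalized counts of 1010261, 795971, 626191 and 711936 in controls. After heat the values were 32796, 40998, 85846 and 41020, all far below the controls with replicate 3 the highest (log2 fold change -4.05 ± 0.29 SE, limma adjusted p = 2.58e-07). LHCB1.4 went from 231314, 119928, 76197 and 78334 to 1762, 2558, 9453 and 1910, and heat replicate 3 again stood above the other heat libraries. LHCB1.2 fell by 2.54 and LHCB1.5 by 2.79 on the log2 scale. The linker antenna genes split in the same way, with LHCB4.2 at a log2 fold change of -6.24 and its paralog LHCB4.1 at -2.50. LHCB4.3, already low at 247, 207, 92.7 and 141 normalized counts, had 29.6, 20.6, 51.1 and 14.2 after heat, lower in every library.

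**Figure D2:**
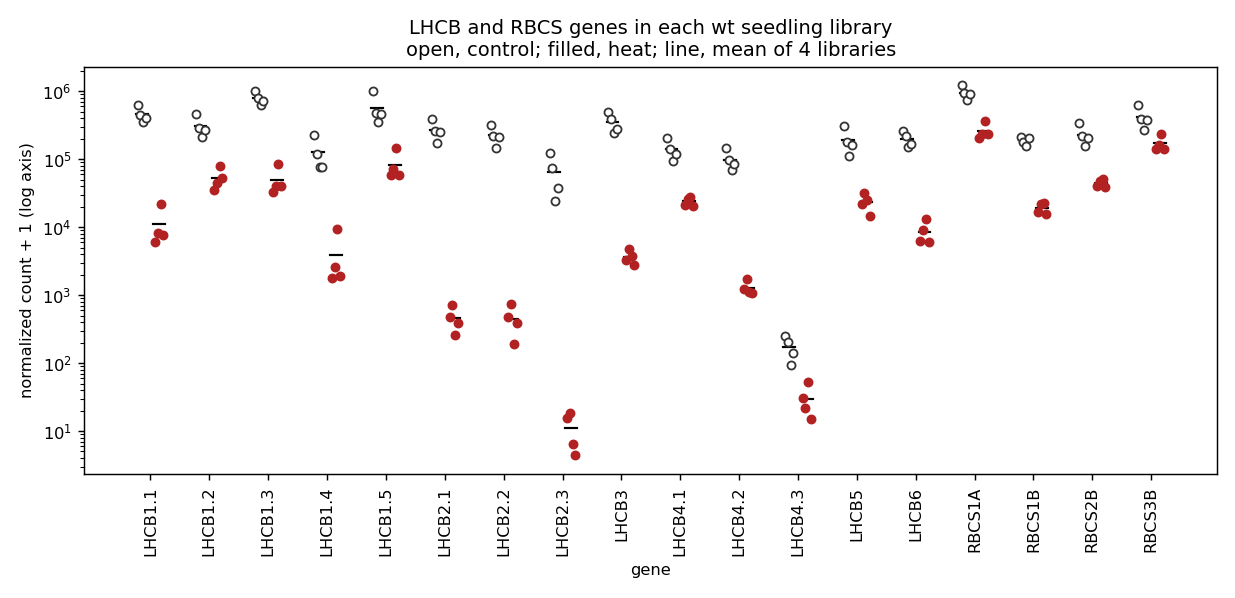
Normalized counts plus 1 (vertical log axis) of the 14 LHCB and 4 RBCS genes in the 4 control (open) and 4 heat (filled) wt seedling libraries, with lines for the means. LHCB2.1, LHCB2.2 and LHCB2.3 dropped by several orders of magnitude, and RBCS3B moved the least.

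Rubisco genes fell the least as a class. The 4 RBCS genes had a median log2 fold change of -2.10, and their share of nuclear gene counts went from 9.19% ± 0.26 to 5.63% ± 1.11 (SD, n = 4), while that of the LHCB genes went from 19.3% to 2.99% ± 1.01. RBCS1A, the main copy by level per kilobase, had normalized counts of 1236947, 945076, 738915 and 901821 in controls and 206225, 233260, 363647 and 235267 after heat, lower in each heat library (log2 fold change -1.89 ± 0.24 SE). RBCS1B had 213481, 181269, 156166 and 207586 in controls and 16807, 22012, 22834 and 15458 after heat. It thus fell further than RBCS1A, with a log2 fold change of -3.31 ± 0.21 SE. RBCS3B fell by 1.25 ± 0.28 SE on the log2 scale, from 628591, 390549, 269734 and 378912 to 142569, 162254, 235625 and 143227. RCA, which restores the activity of Rubisco, had 371564, 284546, 203909 and 272499 in controls and 19118, 28082, 53049 and 21826 after heat (log2 fold change -3.30 ± 0.31 SE). No RCA heat library came near the controls.

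Among the subunits of photosystem I, paralogous copies differed. PSAD docks ferredoxin on the stromal side. PSAD1 had normalized counts of 144028, 122676, 92287 and 87000 in controls and 4288, 6547, 4418 and 3357 after heat, and its copy PSAD2 had 82556, 56707, 38341 and 32622 against 417, 462, 613 and 248. Both pairs of groups stood apart, at log2 fold changes of -4.59 ± 0.25 SE and -6.89 ± 0.33 SE. PSAH1 and PSAH2 encode the subunit at which the mobile antenna docks, and their log2 fold changes were -2.80 and -5.89. The plastocyanin-side subunit PSAN fell by 7.18, the largest fall outside the LHCB2 genes. The differences between paralogs were not tested. The LHCA genes showed a like spread, from -5.94 for LHCA4 to -2.38 for LHCA1, which had 421612, 302005, 193289 and 236798 normalized counts in controls and 52283, 70196, 53753 and 39963 after heat.

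Subunits of photosystem II fell less than those of photosystem I by class median, with a median log2 fold change of -3.29 over the 9 PSB genes against -4.51 over the 12 PSA genes. PSBO1, which stabilises the manganese cluster of the oxygen-evolving complex, had 203586, 171094, 130097 and 143377 normalized counts in controls and 13304, 19589, 18437 and 14961 after heat (log2 fold change -3.29 ± 0.22 SE). PSBS, the sensor for dissipating excess light as heat, had 89643, 64357, 44828 and 54229 against 8945, 11816, 10643 and 7723. It fell by 2.66 ± 0.24 SE on the log2 scale. PSBR, another subunit near the oxygen-evolving complex, had 422740, 284062, 187352 and 238292 in controls and 104288, 126224, 133731 and 88021 after heat, which made it with RBCS3B the least affected member (log2 fold change -1.28 ± 0.26 SE). Across the 46 members the heat effect bore little relation to the control level per kilobase (Pearson r = -0.04, Spearman rho = 0.09 across genes, which share libraries and are not independent).

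The mutants fell as well. In poliv seedlings 45 of 46 genes were lower (all features, 27.1% lower and 22.0% higher), the exception being LHCB4.3 with a log2 fold change of -1.90 and an adjusted p of 0.0643 in limma. Of the 45, RBCS3B and PSBR were not called by edgeR or DESeq2 or without several single libraries (control replicate 1 or 4 or heat replicate 2). In ddm1 seedlings 44 were lower (27.9% lower and 22.7% higher), and RBCS3B and PSBR had log2 fold changes of -0.94 and -0.97, just short of the fold threshold of 1. The 5 most reduced genes of each genotype were LHCB2.3, LHCB2.1, LHCB2.2, PSAN and PSAD2. LHCB2.3 had a log2 fold change of -13.01 in poliv and -12.92 in ddm1. The members' medians were -3.14 in poliv and -2.75 in ddm1.

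Whether the heat effect depended on genotype in seedlings was tested as an interaction. For poliv minus wt no member was called by limma or edgeR (all features, 0.0172% higher and 0.0343% lower). An unadjusted p under 0.05 was found for 0, against 1778 of all 17487 features. LHCB1.3 had a difference of 0.87 ± 0.53 SE and PSBO1 of 0.71 ± 0.44 SE. For ddm1 minus wt again 0 were called by both tools (1.39% and 1.26% of all features). Here 6 had an unadjusted p under 0.05, against 2254 of all 18714 features, with LHCB1.1 at 1.73 ± 0.63 SE and PSAN at 1.19 ± 0.51 SE. Without wt heat replicate 3, LHCB1.1 was called in the latter. Neither result shows that the genotypes respond alike.

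Other genes of the chloroplast fell too, in a fit where 27.4% of all features were lower and 20.3% higher. In wt seedlings all 11 genes of the Calvin cycle and carbon entry were lower, with a median log2 fold change of -3.90, led by CA2 (a carbonic anhydrase) at -7.64, CP12-2 (a small regulator of the cycle) at -6.31 and PRK (phosphoribulokinase) at -4.69. Of 14 genes of chlorophyll synthesis 11 were lower, including GUN4 and CHLH, which act at the magnesium insertion step, at -5.98 and -4.08, and CAO, which makes chlorophyll b, at -4.20. Of 10 genes of electron transport and ATP synthase 8 were lower. Of 8 further light-harvesting and photosystem genes 7 were lower, and of 9 genes of photoprotection and thylakoid repair 7, led by ELIP2, an early light-induced protein, at -7.44.

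Most regulators fell. Of 16 tested, 11 were lower and 1 was higher in wt seedlings, where 27.4% of all features were lower and 20.3% higher. PIF4 and PIF5, bHLH factors of light and temperature signalling, had log2 fold changes of -5.09 and -5.02, and SIG5, a sigma factor for transcription in the chloroplast, -4.96. BBX22, a B-box factor, was the one that rose, by 1.94 on the log2 scale. Of 6 tested genes of chlorophyll breakdown, PPH (pheophytinase) was higher at 1.58, and NOL (chlorophyll b reductase) and SGR1 (stay-green) were lower at -2.98 and -2.02. With 6 genes, these calls were not tested against those shares and describe single genes only. These lists hold between 7 and 16 genes.

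The heat markers and cell type markers moved in the same libraries. The summed normalized counts of HSP17.6A, HSP101 and HSFA2 were from 10.9 to 31.7 in wt control seedlings and from 5303 to 18297 after heat. The sum of 4 epidermis markers went from 17002 to 27428 in controls to between 607 and 2538 after heat, with 4 of 4 called lower, and that of 4 vasculature markers from 4630 to 9766 to between 312 and 729, with 3 of 4 called lower. The part of cell composition in the members' fall was not tested.

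Nuclei isolated from shoot stem cells and from other cells at the same time address transcripts that are in or on the nucleus. In wt control stem cell nuclei the members took 5.47% ± 0.58 (SD, n = 8) of nuclear gene counts and in nonstem nuclei 8.07% ± 0.87 (SD, n = 6), far less than in seedlings. No member passed both thresholds between stem and nonstem control nuclei in limma, edgeR or DESeq2 (all features, 2.02% higher and 0.476% lower in stem cell nuclei). At an adjusted p under 0.05 alone, 37 were lower in stem cell nuclei and 0 higher. An unadjusted p under 0.05 was found for 41, against 3818 of all 19100 features. The median log2 fold change was -0.60 against -0.07 over all features. For counts at an adjusted p alone, here and below, the share of all features was not computed. LHCA1 had -0.67 ± 0.06 SE and LHCB3 -0.55 ± 0.05 SE. After heat RBCS2B alone was called lower in stem than in nonstem nuclei, at -1.03 ± 0.19 SE (1.02% higher and 0.368% lower of all features), and neither edgeR nor DESeq2 called it. It was not called without wt heat-stressed stem replicate 4 or 5 or without nonstem replicate 3. At an adjusted p alone 17 members were lower and 0 higher after heat, and 29 had an unadjusted p under 0.05, against 2730 of 18503 features. The median was -0.66 against -0.17 over all features.

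Heat lowered the members in nuclei of both kinds. In wt stem cell nuclei 40 of 46 fell (23.7% of all features lower and 12.5% higher), with a median log2 fold change of -2.51 against -0.36. The control and heat libraries did not overlap for 40 members, against 13.8% of all features. The share of nuclear gene counts dropped to 0.90% ± 0.10 (SD, n = 8). In nonstem nuclei 36 fell (24.4% lower and 16.0% higher), with a median of -2.35 against -0.22 and a share of 1.33% ± 0.09 (SD, n = 6). In poliv stem cell nuclei 42 fell (22.7% lower and 12.5% higher) and in those labelled ddm1 42 fell (23.0% lower and 12.1% higher). No member rose in any of these fits.

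The order of the members in nuclei was not that of seedlings. In wt stem cell nuclei the largest falls were those of LHCB1.4, LHCB2.3, LHCB1.1, LHCB2.2 and LHCA4, at log2 fold changes of -7.58, -7.38, -7.35, -7.20 and -5.53. LHCB1.4 had normalized counts from 2350 to 3776 with a median of 3176 in control stem cell nuclei. After heat it had from 1.43 to 100 with a median of 14.1, below every control library. LHCB2.3 had from 387 to 685 with a median of 515 and after heat from 0 to 51.7 with a median of 0, so that its fitted fold change depends on the count of 1 added to every value.

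RBCS1A had normalized counts from 21566 to 29491 with a median of 26583 in wt control stem cell nuclei and from 3127 to 3844 with a median of 3520 after heat, with no overlap (log2 fold change -2.91 ± 0.06 SE). LHCB1.3 fell by 4.84 ± 0.11 SE, LHCA1 by 3.23 ± 0.10 SE and RCA by 2.02 ± 0.11 SE on the log2 scale. RBCS1B fell by 2.59, PSAD1 by 2.42, PSBO1 by 1.67 and PSBS by 1.00. The 6 members not called were LHCA5, LHCB4.3, PSAG, PSBO2, PSBQ1 and PSBR, and LHCA6 and PSBS were not called by edgeR or DESeq2. LHCB4.3 had medians of 23.4 and 7.60 normalized counts, and its libraries overlapped (log2 fold change -1.39 ± 0.81 SE).

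In nonstem nuclei the 5 largest falls were again in antenna genes. LHCB2.3 had a log2 fold change of -8.34, LHCB1.1 -6.88, LHCB1.4 -6.21, LHCB2.2 -6.14 and LHCA4 -5.60. RBCS1A fell by 2.83 and RCA by 1.83. Of the 9 PSB genes only 4 were called lower there. The difference between the heat effects of stem and nonstem nuclei was called for 0 members by limma and edgeR (0.140% and 0.135% of all features higher and lower). An unadjusted p under 0.05 was found for 4, against 1700 of all 19298 features. RBCS3B and PSAO had differences of -0.31 ± 0.11 SE and 0.57 ± 0.22 SE.

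**Figure D3:**
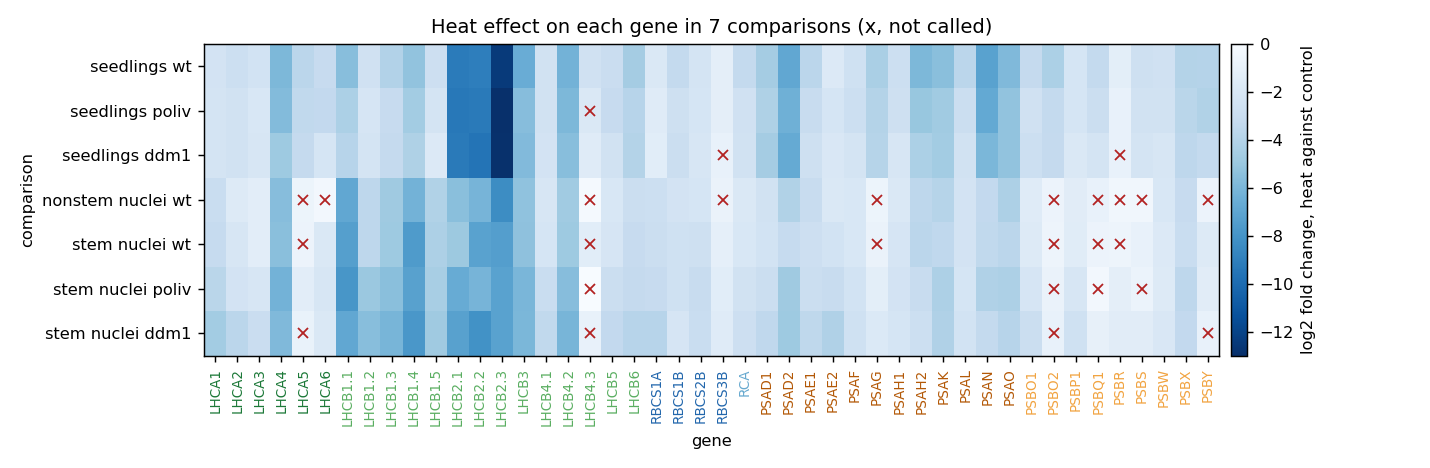
Log2 fold change of heat against control for the 46 genes (columns, labels coloured by class) in 7 comparisons (rows), with darker blue for a larger fall and a cross where the gene was not called. The LHCB2 genes are darkest in seedlings, the LHCB1 genes are darker in nuclei, and crosses gather among the PSB genes in nuclei.

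Some cell type markers moved with these falls in nuclei. The sum of the 3 stem cell markers rose from between 137 and 376 in wt control stem cell nuclei to between 613 and 1003 after heat, with AGO5 and AGO9 called higher, and the sum of 4 vasculature markers went from between 146 and 457 to between 21.7 and 109. The sum of 4 epidermis markers overlapped there, at 964 to 1794 in controls and 989 to 2231 after heat. In wt nonstem nuclei it went from between 988 and 1417 to between 686 and 930. In wt stem cell nuclei chloroplast-encoded transcripts took from 26.4% to 35.5% of all counts in controls and from 13.1% to 18.1% after heat. In wt seedlings they took from 4.42% to 8.82% in controls and from 7.04% to 11.2% after heat. In nonstem nuclei, where the members fell as well, the stem cell markers summed to between 2.04 and 11.6 in controls and between 2.83 and 53.5 after heat. The part of these shifts in the members' fall was not tested.

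The lists of related genes were read against the 23.7% of all features that were lower in wt stem cell nuclei. There 10 of 11 Calvin cycle and carbon entry genes, 8 of 13 tested chlorophyll synthesis genes and 8 of 10 electron transport genes were lower. Of 9 photoprotection and repair genes 2 were lower, a share near that of all features, and the difference from the 7 in seedlings was not tested. Of 16 regulators 10 were lower, with PIF4 at a log2 fold change of -8.24, PIF5 at -5.98 and SIG5 at -4.06. Of 6 tested chlorophyll breakdown genes, NOL and NYC1, both subunits of chlorophyll b reductase, were higher at 2.37 and 1.39. In nonstem nuclei 4 of 6 were higher, led by PPH at 1.39, PAO, which opens the chlorophyll ring, at 1.25 and RCCR, which acts after it, at 1.14.

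The heat effect of wt stem cell nuclei was compared with that of wt seedlings in 1 fit of 4 groups, with weights for each library. The kits for the libraries may differ between these sample types (the methods name version 3 of Smart-seq for stem cell nuclei and version 2 for seedlings, and the labels version 2 for both), so that sample type and kit cannot be told apart. The fall was smaller in nuclei for 21 members and larger for 4, and 9.64% and 14.0% of all features were called in these directions. LHCB2.3 (5.09 ± 1.07 SE), LHCB2.1 (4.29 ± 0.76 SE), PSAN (3.77 ± 0.46 SE), PSAD2 (3.69 ± 0.44 SE) and PSBO2 (3.66 ± 0.40 SE) had the largest positive differences on the log2 scale. LHCB2.3 had at most 685 normalized counts in control nuclei and at least 24340 in control seedlings, so the largest fall that could be measured was smaller in nuclei.

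The 4 genes with a larger fall in nuclei were LHCB1.1 (-1.80 ± 0.52 SE), LHCB1.5 (-1.46 ± 0.38 SE), LHCB1.2 (-1.05 ± 0.29 SE) and RBCS1A (-1.02 ± 0.20 SE). The first 3 belong to the group of 10 members without introns, whose differences had a median of 0.09 and a range of -2.34 to 3.69. PSAD2 (3.69) and PSAG (3.58) have no intron either. In the 9 members with 1 intron the median was 1.29 (0.28 to 5.09) and in the 27 with 2 or more it was 1.02 (-1.02 to 4.29). Intron number was not tested against these differences. PSBO2, which encodes the second copy of the manganese-stabilising protein, had from 75.0 to 161 normalized counts with a median of 118 in control stem cell nuclei and from 37.3 to 116 with a median of 87.2 after heat, so the groups overlapped. In seedlings the same gene fell by 4.3 on the log2 scale. PSAG, a photosystem I subunit on the antenna side, fell by 4.42 in seedlings and had -0.84 in nuclei. Across the 46 genes the heat effects of the 2 sample types were related (Pearson r = 0.71, Spearman rho = 0.60 across genes, a description).

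**Figure D4:**
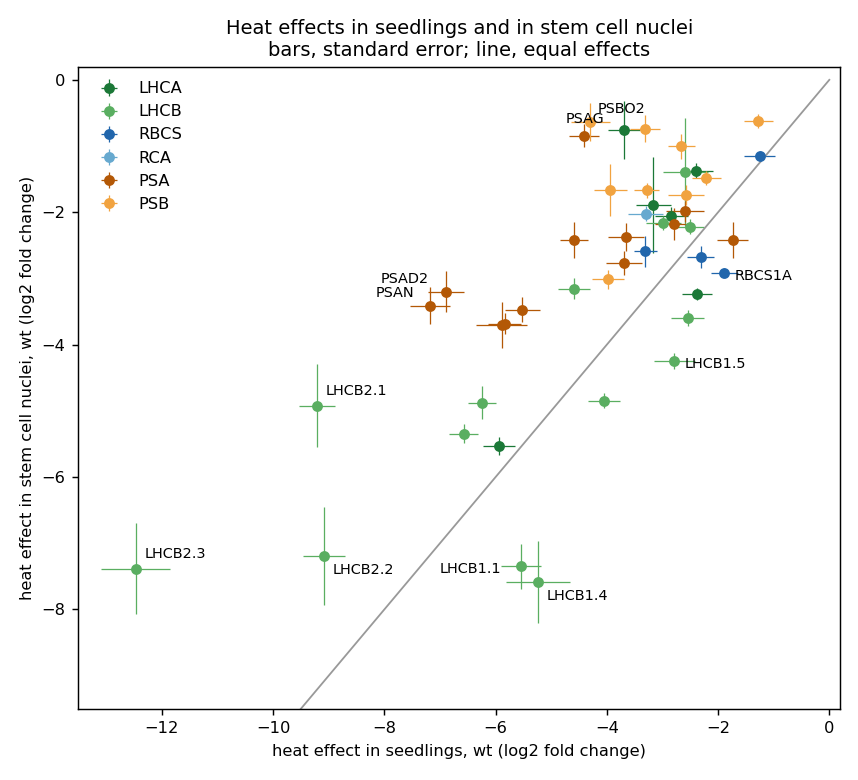
Log2 fold change of heat in wt seedlings (horizontal) and wt stem cell nuclei (vertical) for each gene, coloured by class, with standard error bars and the line of equal effects. PSAG, PSBO2, PSAD2, PSAN and LHCB2.3 lie above the line, and LHCB1.1, LHCB1.4, LHCB1.5 and RBCS1A below it.

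The mutants were compared with wt in control plants at day 7. In seedlings no member was called by limma, edgeR or DESeq2 in poliv (all features, 0.130% higher and 0.0295% lower) or in ddm1 (6.32% and 0.362%). In each, 1 member had an unadjusted p under 0.05, against 1119 of 16969 features in poliv and 2335 of 17939 in ddm1. The smallest adjusted p-values were those of RBCS1B (log2 fold change -0.59 ± 0.26 SE) and LHCA6 (-0.40 ± 0.29 SE) in poliv and of LHCB4.3 (0.75 ± 0.29 SE) and LHCA6 (-0.60 ± 0.33 SE) in ddm1. In poliv stem cell nuclei also 0 were called by the 3 tools (0.658% and 0.324%), with 23 at an unadjusted p under 0.05, against 2377 of all 19156 features. At an adjusted p alone 5 were higher and 5 lower there, led by LHCB1.4 (0.66 ± 0.08 SE) and RBCS1B (-0.82 ± 0.11 SE).

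In the control stem cell nuclei labelled ddm1, 6 members were higher and 1 was lower than in wt, where 13.0% of all features were called higher and 4.75% lower. The groups did not overlap for 24 members, against 10.6% of all features. LHCB1.4 had normalized counts from 8475 to 11095 with a median of 9600 in ddm1 and from 2350 to 3776 with a median of 3176 in wt, with no overlap (log2 fold change 1.61 ± 0.07 SE, limma adjusted p = 1.08e-17). LHCB1.3 had from 39591 to 60850 with a median of 46453 in ddm1 and from 12428 to 19868 with a median of 17427 in wt. The groups stood apart at a log2 fold change of 1.5 ± 0.10 SE. LHCB1.5 was higher by 1.31 ± 0.08 SE, LHCA2 by 1.07 ± 0.08 SE, LHCB1.2 by 1.04 ± 0.11 SE and RBCS1A by 1.02 ± 0.08 SE.

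LHCA6, an antenna gene of low level linked in Arabidopsis to the NDH supercomplex, was the one that was lower, with from 9.0 to 28.5 normalized counts against 11.3 to 63.1 in wt and overlapping groups (log2 fold change -1.21 ± 0.42 SE). It was not called without ddm1 replicate 2 or 3 or wt replicate 1, 2, 5 or 6. RBCS1A was not called without ddm1 replicate 1 or wt replicate 1 or 8, nor LHCB1.2 without wt replicate 1 or 8. Without wt replicate 1, 4 members were called. At an adjusted p under 0.05 alone, 29 members were higher and 3 lower, with a median over all members of 0.45 against 0.06 over all features. LHCA1 had 0.64, RCA 0.61, PSBO1 0.58, PSAD1 0.16, PSBS 0.00, RBCS1B -0.14 and LHCB4.3 -0.65, none of them called.

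Stem cell markers were low in these libraries labelled ddm1, at medians of 29.6 for the summed counts in ddm1, 287 in wt stem cell nuclei and 6.12 in wt nonstem nuclei. The members took 8.13% ± 0.59 (SD, n = 8) of nuclear gene counts in ddm1 stem cell nuclei, close to the 8.07% of wt nonstem nuclei. Set against wt nonstem nuclei instead, a comparison chosen after the data were seen, 0 members were higher and 3 lower by limma (12.0% and 4.01% of all features), and the median log2 fold change was -0.12. Those lower were LHCA6 (-1.43), LHCB2.3 (-1.40) and LHCB2.2 (-1.05). LHCB1.4 stayed above nonstem nuclei at 0.96 ± 0.06 SE, LHCB1.3 at 0.76 ± 0.10 SE and LHCB1.5 at 0.71 ± 0.05 SE, short of the fold threshold. DDM1 itself went against the label here, with from 122 to 401 normalized counts against 38.1 to 130 in wt. In the other nuclei labelled ddm1 it had medians of 52.0 against 64.4 in wt with overlapping libraries after heat at day 7, 65.6 against 35.3 in controls of day 28 and 126 against 24.2 after the earlier heat. Of all features, 13.0% were called higher than wt in the day 7 control stem cell nuclei labelled ddm1, against 0.658% in those of poliv. The paper reports that PC1 of its principal component analysis mostly set ddm1 apart from wt and poliv. It also reports a higher share of transposable element reads in ddm1, whatever the condition. Whether every one of these libraries carries the ddm1 lesion, and what kind of nuclei was sorted, was not tested here, so a difference from wt cannot be assigned to genotype from these libraries.

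After heat, poliv seedlings showed no called member against wt by limma, edgeR or DESeq2 (0.187% and 0.0422% of all features higher and lower). An unadjusted p under 0.05 was found for 0, against 2364 of all 16601 features. LHCB2.3 had a log2 fold change of -1.07 ± 0.57 SE and PSAE2 of -0.51 ± 0.28 SE. In poliv stem cell nuclei 0 were called by the 3 tools (0.201% and 0.0869%), with 17 at an unadjusted p under 0.05, against 1606 of all 18421 features. LHCB1.2 and PSBR passed the adjusted p alone at -0.93 ± 0.19 SE and -0.74 ± 0.16 SE. In ddm1 seedlings 0 were called by limma, 1 by edgeR and 9 by DESeq2, all higher (8.19% and 0.352%). An unadjusted p under 0.05 was found for 15, against 3560 of all 17918 features. PSAN had 1.17 ± 0.33 SE (limma adjusted p = 0.0513) and LHCB4.3 1.79 ± 0.50 SE (limma adjusted p = 0.0540). Without wt heat replicate 3, 8 members were called higher, without ddm1 heat replicate 1 there were 7 and without ddm1 heat replicate 2 there were 2.

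In the heat-stressed stem cell nuclei labelled ddm1, LHCB1.1 was higher than in wt at 1.35 ± 0.38 SE and LHCB2.1 lower at -2.50 ± 0.87 SE (13.3% and 3.13% of all features). The libraries of both genotypes overlapped for both genes. LHCB2.1 was not called by edgeR, with 0.5 added to each count, with no filter on low values, with a minimum mean of 20, or without any 1 of ddm1 replicates 1, 2, 3, 5 and 6 or wt replicates 1, 2, 3, 4, 5, 7 and 8. As an interaction, the fall in stem cell nuclei was larger in ddm1 than in wt for 11 members and smaller for 0 (3.03% of all features less negative and 4.06% more negative). LHCB1.2 (-1.94 ± 0.19 SE), PSAE2 (-1.71 ± 0.49 SE), LHCA2 (-1.63 ± 0.23 SE), LHCA3 (-1.58 ± 0.17 SE) and LHCA1 (-1.41 ± 0.15 SE) had the largest differences. The others were LHCB1.3, LHCB4.1, LHCB4.2, LHCB5, PSBO1 and PSBP1. LHCB1.2 had from 12324 to 17968 normalized counts in ddm1 controls and from 220 to 445 after heat, against 5442 to 9240 and 507 to 961 in wt. It was thus higher in ddm1 before heat and lower after it. The same control libraries, with few stem cell marker counts and more DDM1 than wt, enter this difference. In edgeR 9 of the 11 were called, without LHCB4.2 and PSAE2, and LHCB4.2 was also lost without any 1 of many libraries. For poliv minus wt, LHCB1.2 alone was called, at -1.33 ± 0.19 SE (0.0467% and 0.187% of all features).

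**Figure D5:**
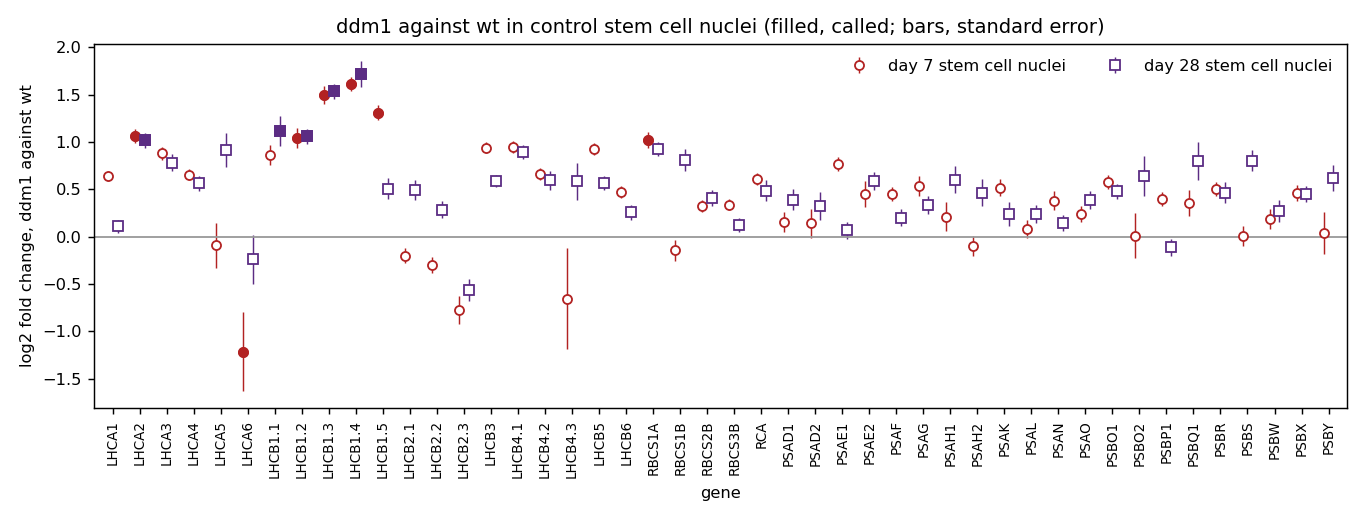
Log2 fold change of ddm1 against wt (vertical) for each gene in control stem cell nuclei at day 7 (circles) and day 28 (squares), with standard error bars and filled symbols where the gene was called. LHCB1.3 and LHCB1.4 are highest at both ages.

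At day 28 the members stood lower in inflorescence tissue than in seedlings of control wt plants, with 1 exception. Here 45 were lower and 1 higher (15.8% and 15.5% of all features), at a median log2 fold change of -2.19 against 0.19. LHCB4.3 was the exception. It had 2822, 2229 and 1785 normalized counts in the 3 inflorescence libraries against 247, 207, 92.7 and 141 in seedlings, higher in every library (3.79 ± 0.32 SE, limma adjusted p = 6.72e-06). LHCB1.4 fell the furthest, to 1970, 1798 and 2780 normalized counts, at -5.73 ± 0.37 SE. LHCA6 had -3.17, PSBO2 -3.08, LHCB2.3 -2.78 and LHCB4.2 -2.77. Age, organ and growth on soil differ together between these groups.

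After heat given at the seedling stage, limma called at most 1 member in any comparison at day 28. With 3 or 4 libraries per group, the lack of calls does not show that no difference was left. In inflorescences, limma, edgeR and DESeq2 called 0 members in wt (0% of all features in each direction), poliv (0.881% higher and 0.211% lower) and ddm1 (0.704% and 0.0582%). Unadjusted p was under 0.05 for 0, 18 and 10 members, against 926 of 17966, 2551 of 18038 and 2354 of 18905 features. The log2 fold change was negative for 41, 38 and 33 of the 46 members. Their medians were -0.17, -0.45 and -0.18, against -0.02, 0.04 and 0.04 over all features. This shift of the members as a set was not tested. LHCA3 and LHCB1.2 had -0.33 and -0.39 in wt, PSAD2 and LHCA1 -0.80 and -0.81 in poliv, and PSAD2 and LHCB1.2 -0.73 and -0.69 in ddm1. In stem cell nuclei of day 28, 0 were called by the 3 tools in wt (0% in each direction) and poliv (0.0541% and 0%). An unadjusted p under 0.05 was found for 12 and 7, against 1412 of 24507 and 1333 of 25883 features. The medians of the members were 0.14 and 0.13 against 0.08 and 0.07 over all features. In wt the adjusted p of members tied at 0.849, with LHCA1 at -0.41, LHCB2.1 at 0.92 and PSBY, which had the smallest unadjusted p, at 1.01, and LHCB2.1 and PSAL had 0.86 and 0.64 in poliv.

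In the stem cell nuclei of day 28 labelled ddm1, only LHCB1.4 was called after the earlier heat, lower at -1.26 ± 0.18 SE (limma adjusted p = 0.0293, with 0.169% and 0.0604% of all features higher and lower). This call was lost in edgeR, under TMM scaling and without any of the 4 control replicates or heat replicate 3. Without heat replicate 1, 13 members were called, 8 higher and 5 lower. The share of nuclear gene counts on the members was from 5.11% to 6.78% in these heat libraries and from 7.95% to 9.24% in the ddm1 controls, with no overlap. In wt the corresponding ranges overlapped, at 3.90% to 5.84% after heat and 5.02% to 5.48% in controls.

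Between genotypes at day 28, controls of inflorescences gave 0 called members by limma and edgeR in poliv (0.113% and 0.0509%) and in ddm1 (7.76% and 2.52%), where DESeq2 called 1 in ddm1 and 0 in poliv. Unadjusted p was under 0.05 for 2 and 3 members, against 1421 of 17699 features in poliv and 3699 of 18834 in ddm1. LHCB4.3 (-0.48) and PSAD2 (0.50) in poliv and LHCA2 (0.70) and LHCB2.3 (-0.62) in ddm1 had the smallest adjusted p-values. Among the other named genes in ddm1, none was called. In poliv stem cell nuclei 0 were called by the 3 tools (0.122% and 0.282%), and 1 had an unadjusted p under 0.05, against 1540 of all 23012 features. PSAG and LHCB2.3 had 0.38 and -0.31.

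In the control stem cell nuclei of day 28 labelled ddm1, 5 members were higher than in wt and 0 lower (9.21% and 5.05% of all features). LHCB1.4 had 1361, 1022, 1275 and 1120 normalized counts in ddm1 and 272, 368, 377 and 444 in wt, with no overlap (1.72 ± 0.14 SE, limma adjusted p = 8.31e-07). LHCB1.3 had 16076, 17390, 19801 and 18391 against 5999, 5739, 5979 and 6961. It was higher in each ddm1 library (1.54 ± 0.08 SE). LHCB1.1, LHCB1.2 and LHCA2 were higher by 1.12, 1.06 and 1.02. At an adjusted p alone 34 members were higher and 1 lower, and the median was 0.49 against -0.01. RBCS1A had 0.93, PSBS 0.81, RBCS1B 0.81, PSBO1 0.48, RCA 0.49, PSAD1 0.39, LHCA1 0.11 and LHCB4.3 0.58. The stem cell markers summed to between 451 and 563 in ddm1 and between 637 and 704 in wt at this age, again lower in every ddm1 library. In poliv controls of this age the sum was between 535 and 562, also below every wt library.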

How the data were processed

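RNA was sequenced with Smart-seq chemistry. The authors quantified reads with the nextflow rnaseq pipeline over TAIR10 genes and transposable elements (transposable element genes left out) and divided them by DESeq2 size factors, so that the deposited signal values are normalized counts of 60886 features. Bedtools 2.27 is named in the submitters' processing notes. The aligner, the counter and the strand setting are not given in the sources used here. Within a tolerance of 0.1, 100% of the values above 0 were whole multiples of the value of 1 read, and whole reads were recovered for 125 of 128 libraries. The 52 deposited columns of group means and SDs were not used. All column names matched their samples' labels.

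The main test was limma 3.58.1 (trend and robust options, R 4.3.3) on log2(normalized count + 1), keeping features whose average over the fitted libraries reached 5, with Benjamini-Hochberg adjustment over all of them. The fit of nuclei and seedlings together had library weights, and 34 comparisons were made. Alternatives were other added counts, other minima, TMM scaling, edgeR 4.0.16 and DESeq2 1.42.0 on the recovered reads, an adjusted p alone, a replicate block and leaving out each library. The fits were tested on simulated data. Samples were grouped by their labels.

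Named members were 10 representatives, up to 5 called members per direction with the largest change, all where 5 or fewer were called, and the 2 of smallest adjusted p where none was. At most 3 called genes per pathway list were named. The members and lists were chosen with earlier results of these data known. LHCA4, LHCB1.2, LHCB1.5, LHCB4.1, LHCB4.2, PSAH1, PSAH2, PSBO2, PSAG, RBCS3B and PSBR in day 7 heat, the members listed as not called or as losing a call, the remaining 6 of the 11 ddm1 differences in nuclei and BBX22 stand outside this rule and were chosen after their values were seen. Promoters and gene structures came from the RefSeq annotation of TAIR10.1, in which all 46 members were matched. Whether replicate numbers pair samples was checked, and deviations of same-numbered samples correlated above 0.1 in each pair only for wt inflorescences (r from 0.11 to 0.17 over 3 pairs).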

Additional observations from a re-analysis of the deposited data

Results flagged for a closer look

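Of 58 groups of library values tested, 3 held 1 library far from the others of its group, and chance flags about 1 in 20 groups. LHCB2.3 had 51.7 normalized counts in replicate 6 of wt heat-stressed stem cell nuclei, where the other libraries had from 0 to 15.7. LHCB1.3 had 85846 in replicate 3 of wt heat-stressed seedlings against 32796 to 41020 in the others. LHCB1.4 had 9453 in the same library against 1762 to 2558.

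Heat effects that differed between groups by a test of the difference itself were seen in 3 comparisons. In stem cell nuclei the heat effect of poliv differed from that of wt for 1 member, which fell further in poliv. Of all features, 0.0467% were less negative and 0.187% more negative there. The heat effect in nuclei labelled ddm1 differed from wt for 11 members, all with a larger fall in ddm1 (3.03% of all features less negative and 4.06% more negative). The ddm1 control libraries in this difference had few stem cell marker counts and a higher median of DDM1 than wt. It therefore cannot be assigned to genotype. In wt the heat effect of stem cell nuclei differed from that of seedlings for 25 members, 21 with a smaller and 4 with a larger fall in nuclei. Of all features, 9.64% and 14.0% were called in these directions.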

How the results depend on the processing

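For heat at day 7 the balance of called members stayed on the lower side in every alternative run, and no called named member changed sign under a setting chosen at the start. The signs of members not called were not checked. TMM scaling moved the median log2 fold change of all features by 0.27 for heat in wt seedlings, 0.21 in poliv and 0.20 in ddm1 seedlings, 0.15 in wt stem cell nuclei and 0.14 in nonstem nuclei. All counts of members called that moved by over 1.5 times are given here, and smaller shifts, such as 9 in place of 11 for the ddm1 interaction in stem cell nuclei by edgeR, are not listed. After the earlier heat in ddm1 stem cell nuclei of day 28 (1 called), 3 were called with no filter on low values, 5 by DESeq2, and 0 by edgeR or under TMM, and leaving out 1 library gave from 0 to 13, where the 13 (8 higher, 5 lower) turned the balance. Without that filter 1 was called in wt. For ddm1 against wt in heat-stressed seedlings (0 called), 1 was called with 5 added to each count, under TMM and by edgeR, 3 with no filter and 9 by DESeq2, and leaving out 1 library gave from 0 to 8. In heat-stressed stem cell nuclei of ddm1 (2 called), 1 was called with 0.5 added, with no filter, with a minimum mean of 20 and by edgeR, and leaving out 1 library gave from 1 to 3. For stem against nonstem nuclei after heat (1 called), edgeR and DESeq2 called 0, with a range of 0 to 3 over libraries left out. TMM gave 8 for ddm1 in control stem cell nuclei of day 28 and DESeq2 gave 1 for ddm1 in control inflorescences. In ddm1 control stem cell nuclei of day 7 (7 called) leaving out 1 library gave from 4 to 7, and wt nonstem nuclei as the comparator, chosen after seeing the data, gave 3, all lower. The ddm1 interaction in seedlings gave from 0 to 1. At an adjusted p alone, counts rose to 10 for poliv and 32 for ddm1 in control stem cell nuclei, 35 for ddm1 at day 28, 2 for poliv and 8 for ddm1 in heat-stressed stem cell nuclei, 37 and 17 for stem against nonstem control and heat nuclei, and 3 and 20 for the poliv and ddm1 interactions in stem cell nuclei. With the replicate block, pairing samples of the same number, 1 member was called for the earlier heat in poliv inflorescences, 5 for ddm1 in heat-stressed seedlings and 2 for stem against nonstem nuclei after heat. Samples shared only a number in these, and in wt inflorescences, where the numbers paired, the block left 0 called. The causes of these changes were not tested. Low counts limit LHCB4.3, LHCA5 and LHCA6 in nuclei, and near-copies of LHCB and RBCS genes could exchange reads.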
